A study of Bos indicus with 12 samples.

Results

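The 600 kb of bovine chromosome 29 around CAPN1 (calpain 1), from position 43150000 to 43750000 of ARS-UCD1.2, held 688 of the 635469 cytosines that were covered in all 12 animals. The members were all covered cytosines in that interval, chosen by position alone, with 318 on the plus strand and 370 on the minus strand. Methylation was measured by reduced representation bisulfite sequencing (RRBS), in which fragments cut by a restriction enzyme at CpG-rich sites are treated with bisulfite, so that an unmethylated cytosine is read as thymine and a methylated one stays cytosine. The samples were *longissimus thoracis* muscle of Nelore animals, a *Bos indicus* beef breed, in a Tough group (n = 6) and a Tender group (n = 6), with 1 library per animal. The animals were steers finished in a feedlot on the same ration and were taken from the 2 extremes of estimated breeding value for shear force, the force needed to cut the cooked meat, which the labels give at 7 days of aging and the study's text at a later time. No animal was treated, and the groups contrast a predicted trait, so a value from a group is not a response to an agent. Tough animals are numbered 1 to 6 and Tender animals 7 to 12.

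CAPN1 encodes the catalytic subunit of calpain-1 (µ-calpain), a calcium-dependent cysteine protease of the cytosol. After slaughter it cuts proteins that hold the myofibril together, and calpastatin, its inhibitor encoded by CAST, limits that cutting, which is why variation at CAPN1 has long been studied in beef tenderness. In mammals the promoters of broadly expressed genes commonly lie in CpG islands that carry little methylation in most tissues, while bodies of active genes and intergenic DNA are mostly methylated. In the RefSeq annotation of another *Bos indicus* assembly (Tharparkar), the genes on one side of CAPN1 were, in order, SPDYC, SYVN1, MRPL49, FAU, ZNHIT2 and TM7SF2. On the other side an uncharacterized locus was followed by POLA2, CDC42EP2, DPF2, TIGD3 and SLC25A45. FAU encodes a ubiquitin-like fusion with a ribosomal protein, MRPL49 a mitochondrial ribosomal protein, SYVN1 an E3 ubiquitin ligase of the endoplasmic reticulum and POLA2 a subunit of DNA polymerase alpha. An annotation of ARS-UCD1.2 was not used here, so the positions below are not assigned to the promoter, exons or introns of any of these genes, and that CAPN1 lies in the interval is taken from the rule that chose it.

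The covered cytosines stood in 119 clusters, defined as runs with at most 100 bp between neighbours. Clusters of 10 or more cytosines numbered 22 and held 392 of the 688, while 29 clusters were a single cytosine. The median gap between neighbours was 11 bp, and the longest stretch without a covered cytosine ran for 60395 bp from 43339453 to 43399848. Coverage per cytosine had a median of 25 to 35 in the Tough animals and 25 to 32 in the Tender animals after the authors' scaling. Before scaling, the reads at each cytosine summed over the region to 15844 to 27429 in Tough and 17445 to 25636 in Tender animals, with as few as 10 at a cytosine. At such depths a single value in 1 animal carries a wide interval, and the 95% Wilson and zero-count limits given below cover counting error only.

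More than 50% of the region's covered cytosines carried little methylation. Averaged over the 12 animals, 365 of 688 (53.1%) had a mean under 5%, compared with 52.4% of all covered cytosines. A further 62 (9.01%) had means of 5 to 20%, 165 (24.0%) of 20 to 80%, 43 (6.25%) of 80 to 90% and 53 (7.70%) over 90%. The region therefore held a larger share in the intermediate class than the whole table (17.8%) and a smaller share over 90% (13.6% in the whole table). On chromosome 29 these shares were 22.6 and 14.2%, so the region's intermediate share was close to that of its chromosome. Its mean was 26.3% and its median 3.88%, against 29.7% and 4.11% for all cytosines and 33.9% and 8.93% for chromosome 29. Among the 1630 intervals of 600 kb with at least 100 covered cytosines, 56.6% had a lower mean, so the level of the CAPN1 region was near the middle of such intervals. By count it was among the denser ones, as 4.39% of all 4307 intervals held at least as many cytosines.

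**Figure D1:**
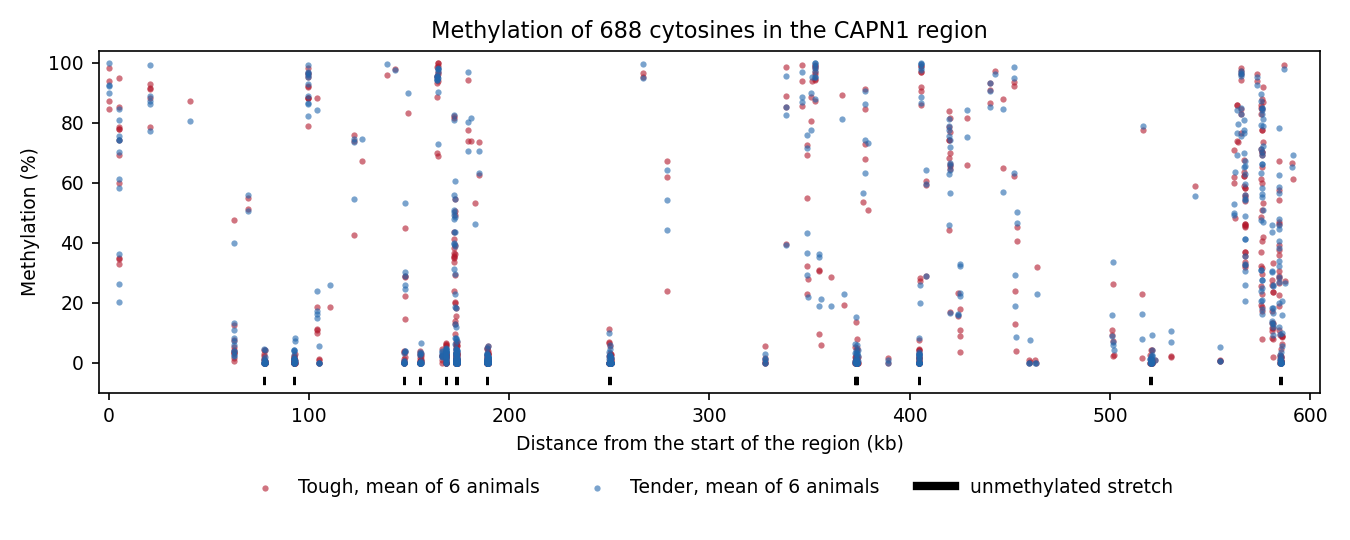
Methylation in percent of each of the 688 cytosines (vertical axis) against distance from the start of the region in kb (horizontal axis), as the mean of the 6 Tough (red) and the 6 Tender animals (blue), with black bars below 0 at the 13 unmethylated stretches. The 2 colours lie on each other at the unmethylated stretches, and 75 of the 157 cytosines in the last 100 kb lie between 20 and 80%.

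The level changed along the interval. From 43250000 to 43349999 the 256 covered cytosines had a mean of 14.6%, and 188 of them were under 5%. The next 100 kb was sparsely covered, with 44 cytosines and a mean of 9.11%. The first 100 kb (34.7%) and the last 3 segments of 100 kb (34.0%, 39.4% and 36.1%) had higher means. In the last segment 75 of the 157 cytosines were between 20 and 80% and 40 were under 5%. The segment before it had 25 of 75 between 20 and 80%.

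Unmethylated stretches, here runs of at least 10 cytosines with gaps of at most 1000 bp and every one under 10%, numbered 13 and held 341 cytosines (49.6% of the region, against 49.7% of all cytosines in such runs). Their means ranged from 0.914 to 2.46%. The 3 richest were 43323403 to 43324140 with 73 cytosines and a mean of 1.09%, 43339005 to 43339453 with 56 and 0.914%, and 43399848 to 43400710 with 39 and 1.26%. Genes that start at these runs were not placed here. The first of them had close levels in both groups, with 1.10% ± 0.587 in Tough and 1.09% ± 0.563 in Tender animals (SD, n = 6 each). In the third run Tough animals had 1.45% ± 0.953 and Tender animals 1.07% ± 0.711 (SD, n = 6 each), a difference smaller than either SD. Across all 13 runs no animal's mean was above 4.64%, the value of Tough 4 in the run from 43318395 to 43318614. In other words, low methylation at these runs was shared by all 12 animals.

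Methylated runs, with at least 5 cytosines all over 80%, were fewer and shorter. The region held 5 of them with 39 cytosines (5.67%, against 7.30% of all cytosines). The run from 43502491 to 43502544 had the highest mean, 96.2%, and that from 43249591 to 43249704 the lowest, 91.8%. Animals differed little in them, with 1 exception: in the run from 43313692 to 43314244 Tough 2 had 79.5%, and the highest animal, Tough 6, had 98.8%.

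Runs of at least 5 cytosines that were all between 20 and 80% made up 11.3% of the region (9 runs, 78 cytosines), against 5.12% of all cytosines. The run with the most cytosines, from 43716990 to 43717337, held 21 with a mean of 50.8%. Tough animals had 49.2% ± 5.92 there and Tender animals 52.4% ± 6.99 (SD, n = 6 each), and the 12 animals ranged from 38.5 to 58.7%. The 9 cytosines from 43322267 to 43322520, which lie before the richest unmethylated run, had 35.9% ± 5.32 in Tough and 45.4% ± 10.1 in Tender animals (SD, n = 6 each). Tender 7, Tender 12 and Tender 10 were the highest there at 56.2, 55.1 and 51.9%, while the other 3 Tender animals, at 33.3 to 38.1%, lay among the Tough animals (27.0 to 43.3%). At the run from 43155103 to 43155152 the order was the other way, with 61.2% ± 6.39 in Tough and 55.9% ± 6.61 in Tender animals (SD, n = 6 each). No run of intermediate level had a cytosine past the test described below.

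Neighbouring cytosines usually had like levels, but not everywhere. Over 339 neighbouring pairs 1 to 10 bp apart the median step in mean level was 1.33 percentage points (1.09 over all such pairs), and over 48 pairs more than 500 and up to 5000 bp apart it was 30.4 points (19.5 over all). Of the 604 pairs within 500 bp, 12 (1.99%) had a step above 50 points, compared with 1.18% of 538150 pairs in the whole table. At all 12 steps every animal went in the same direction, which is largely given, as the steps were picked by the mean of these animals. They are not all separate, since 43569880 and 43725804 each end a step and start the next. Of these 12 steps, 6 lay between 43725375 and 43726105. There the mean went from 86.1 to 19.9% over 11 bp at 43725375, from 33.9 to 86.3% over 97 bp at 43725439, and from 86.5 to 17.5% over 170 bp at 43725935. The step of largest size in the region was from 98.6% at 43736884 to 27.0% at 43737337.

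**Figure D2:**
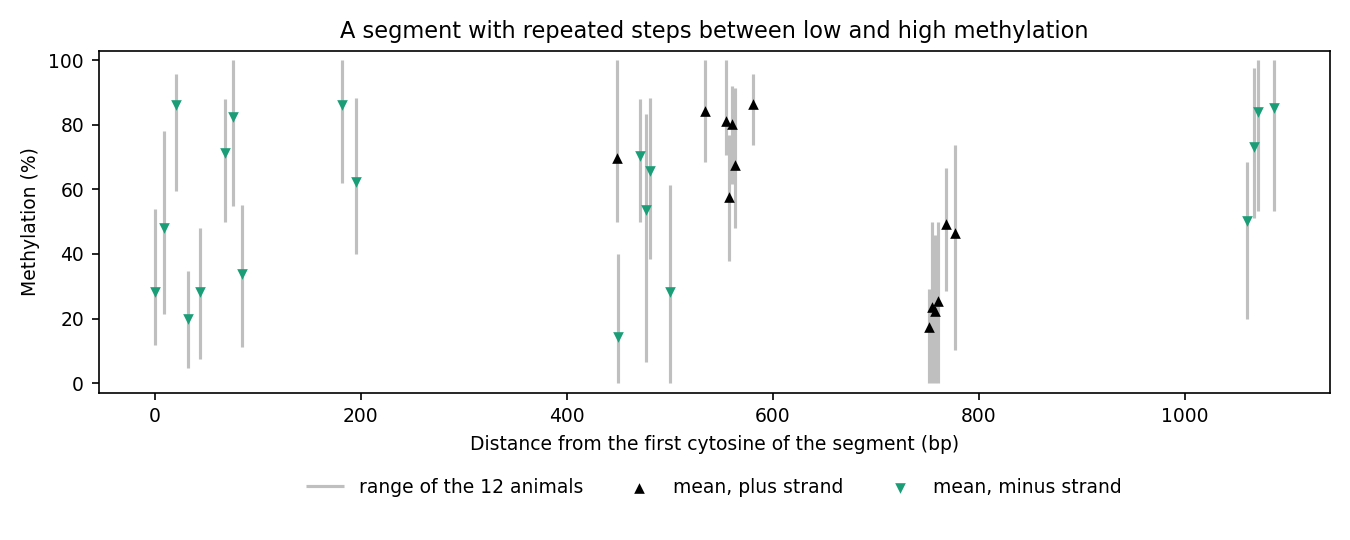
Methylation in percent (vertical axis) along the run of cytosines that held the most steps above 50 points (horizontal axis, distance in bp from its first cytosine), with the mean of 12 animals for the plus strand (black, pointing up) and the minus strand (green, pointing down) and grey lines for the range of the animals. Cytosines a few bp apart sit at levels as different as 86.1 and 19.9%.

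At 99 CpGs both strands were covered, and the 2 strands had like levels, with a median difference of 0.779 points (0.828 over 78253 such CpGs in the whole table). The largest strand difference lay among those steps, at the CpG of 43725803, where the plus strand had 69.6% and the minus strand 14.4%. It was followed by 43212662 with 43.6 and 12.8%, and 43569831 with 68.7 and 45.1%. The causes of these differences between strands were not tested.

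The 12 animals had similar profiles. Across the 688 cytosines, Pearson's r between animals was 0.920 to 0.956 with a median of 0.943 over 66 pairs. The median was 0.941 for pairs of the same group and 0.944 for pairs from different groups, so pairs within a group were no more alike than pairs across groups. These correlations are across cytosines, which are not independent replicates. The median SD over the 12 animals was 4.49 points per cytosine (4.58 in the whole table). In the class of 20 to 80% it was 13.9 points, where counting error alone would give an SD of 10.1 points. Cytosines at which the animals spanned from at most 5% to at least 95% numbered 2290 (0.360%) in the whole table and 0 in the region.

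Averaged over the region, Tough animals had 25.9% ± 0.952 (SD, n = 6, lowest 24.9, median 25.8, highest 27.1) and Tender animals 26.7% ± 0.481 (SD, n = 6, lowest 26.1, median 26.7, highest 27.5). The difference of 0.797 points was smaller than the SD of the Tough group, and the groups overlapped. Over all covered cytosines the means were 29.5 and 29.9%. In the class of 20 to 80% the values were 48.9% ± 2.98 in Tough and 50.9% ± 1.41 in Tender animals (SD, n = 6 each), again with overlapping ranges. The classes under 5% and over 90% differed by 0.196 and 0.485 points. No test was made on these averages.

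The 2 groups of the study were not the only division among the libraries. By the conversion rate measured on spiked-in control DNA, the animals fell into a group of 7 with lower conversion (Tough 1, 3 and 4, Tender 7, 9, 10 and 12) and a group of 5 with higher conversion (Tough 2, 5 and 6, Tender 8 and 11). At the region's cytosines under 5% the 7 animals had means of 1.29 to 1.70% (median 1.46) and the 5 animals 0.507 to 0.947% (median 0.615), and the ranges did not overlap. The same division was seen over the whole table, at 1.38 to 1.51% and 0.717 to 0.844%. Within the lower-conversion animals the region's mean was 0.174 points higher in Tender than in Tough, and within the higher-conversion animals 1.23 points higher. For the class of 20 to 80% the difference was -0.164 and 4.08 points in those groups, so its sign was not the same in both.

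**Figure D3:**
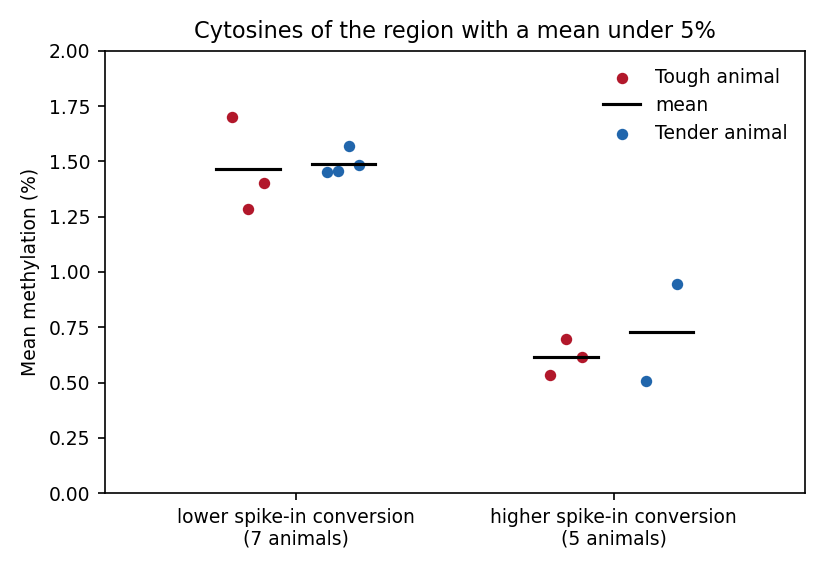
Mean methylation in percent (vertical axis) of the region's 365 cytosines under 5%, 1 point per animal, for the 7 animals with lower and the 5 with higher spike-in conversion (horizontal axis), with black lines at the means of Tough (red) and Tender animals (blue). The lower-conversion animals sit between 1.29 and 1.70%, all above the higher-conversion animals.

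No cytosine of the region was called as differentially methylated between Tough and Tender animals. A differentially methylated cytosine (DMC) needed an adjusted p-value under 0.05 in a logistic model with overdispersion, adjusted by Benjamini-Hochberg over all 635469 cytosines, and a difference above 25 percentage points in pooled methylation. By this rule 0 of 688 were called, with 0.019% of all cytosines called (121). The same rule gave 0 of 194 windows of 100 bp (differentially methylated regions, DMRs, 0.0217% of all windows called) and 0 of 119 clusters (0.016% of all clusters called). At those rates a region of this size would seldom hold a call, so the count of 0 is near the background and does not set the CAPN1 region apart. The lowest adjusted p-values in the logistic model were 0.115 for a cytosine, 0.0640 for a window and 0.0812 for a cluster. An F-test in the same model and limma on log2 ratios also called 0, with lowest adjusted p-values of 0.312 and 0.944. Both used the same pooled differences, at most 24.5 points in the region, so neither could call a cytosine here. Leaving out Tender 9 gave 1 call, at 43717261 (-30.7 points, adjusted p = 0.00689, logistic model), and leaving out Tender 10 gave 1 call, at 43574994 (27.4 points, adjusted p = 0.0352, logistic model).

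The differences themselves were small. Their median size was 1.51 points in the region and 1.52 points over all cytosines, 50 cytosines (7.27%) differed by more than 10 points (5.95% of all) and 6 (0.872%) by more than 20 points (0.643% of all). The largest was 24.5 points. Levels were higher in Tender animals at 325 cytosines (47.2%, against 46.1% of all), higher in Tough animals at 267 and equal at 96.

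**Figure D4:**
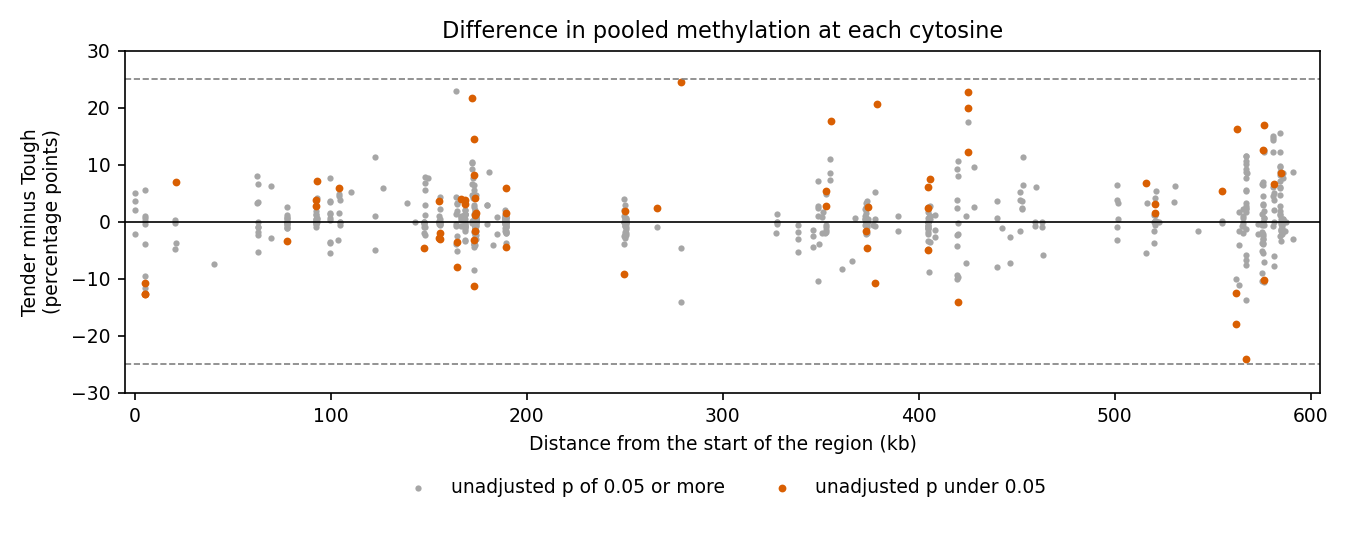
Difference in pooled methylation, Tender minus Tough, in percentage points (vertical axis) for each of the 688 cytosines against distance from the start of the region in kb (horizontal axis), with the 64 at an unadjusted p under 0.05 in orange and dashed lines at the threshold of 25 points. All points lie between the dashed lines.

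Without adjustment, 64 of 688 cytosines (9.30%) had p under 0.05 in the logistic model, where 8.29% of all cytosines did. Of these 40 (5.81%, against 4.79% of all) were higher in Tender and 24 (3.49%, against 3.5% of all) higher in Tough animals. The F-test gave 46 (6.69%, against 6.05% of all) and limma 42 (6.10%, against 4.91% of all). By cluster 12 of 119 (10.1%, against 8.41% of all) and by window 16 of 194 (8.25%, against 8.76% of all) had p under 0.05. Each of these shares was near its background. Cytosines with no overlap between the 6 Tough and 6 Tender animals numbered 2 (0.291%, against 0.0965% of all). By class, p was under 0.05 at 31 of 365 cytosines under 5% (8.49%, against 7.71% of all cytosines of that class), 10 of 62 at 5 to 20% (16.1%, against 9.07%), 14 of 165 at 20 to 80% (8.48%, against 8.18%), 2 of 43 at 80 to 90% (4.65%, against 8.04%) and 7 of 53 over 90% (13.2%, against 10.3%). The 31 under 5% differed by a median of 3.20 points and the 14 at 20 to 80% by a median of 16.6 points. The 64 were spread over 43 clusters, and 6 clusters held 3 or more.

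Among the 5 cytosines with the smallest p-values that were higher in Tender animals, 2 differed by about 20 points. At 43575023 (minus strand, 425.0 kb into the region) Tough animals had 0, 11.8, 9.09, 0, 0 and 0%, and Tender animals 37.0, 29.2, 21.1, 5, 12.9 and 33.3%. In these scaled values only Tender 10, the lowest of its group, lay within the range of the Tough animals, and in the reads before scaling Tender 11 (12.9%) did as well, since Tough 2 had 13.3%. The pooled difference was 19.97 points, with an adjusted p of 0.115 (logistic model) and an exact two-sided permutation p of 0.00866. Exact permutation p-values here and below are unadjusted. They are for cytosines and clusters named by their values in these same data, and so are descriptive. Before scaling, the 4 Tough animals at 0 had 16 to 27 reads, which allows a level of up to 18.8 and 11.1%. Without Tender 10 the difference was 23.1 points with an adjusted p of 0.0322 (logistic model), which is past the p threshold but not past 25 points.

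This cytosine was 1 of 4 in a cluster of 36 bp, 43574988 to 43575023, all on the minus strand and close enough to share reads. All 4 were higher in Tender animals, by 12.3, 22.8, 17.5 and 19.97 points. Over the cluster, Tough animals had 10.4% ± 4.74 (SD, n = 6, lowest 1.16, median 11.6, highest 14.9) and Tender animals 27.7% ± 11.97 (SD, n = 6, lowest 14.3, median 23.7, highest 42.4). The groups overlapped only in that Tough 2 (14.9%) was above Tender 10 (14.3%). The difference of 18.1 points had an adjusted p of 0.0858 over all clusters (logistic model) and an exact permutation p of 0.00433. Tough and Tender means were 11.5% (n = 3) and 25.9% (n = 4) where conversion was lower, and 9.28% (n = 3) and 31.4% (n = 2) where it was higher. With so little overlap between the groups, a split of the animals could hardly show another order, so it is not a separate test. Within the cluster, 43574994 had 11.1% ± 6.80 in Tough and 33.0% ± 17.04 in Tender animals (SD, n = 6 each, adjusted p = 0.228, logistic model); it was named after its values were seen, because it was the call made without Tender 10.

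At 43528909 (minus strand, 378.9 kb) the groups did not overlap. Tough animals had 51.003% ± 10.6 (SD, n = 6, lowest 39.3, median 52.1, highest 62.5) and Tender animals 73.1% ± 10.01 (SD, n = 6, lowest 63.2, median 70.1, highest 87.1). The pooled difference was 20.7 points, with an adjusted p of 0.120 (logistic model) and an exact permutation p of 0.00216, the smallest that 6 against 6 can give, a value that the lack of overlap alone fixes. It remained between 17.8 and 22.8 points when each animal was left out in turn. The gap between the groups is narrow beside the counting error: before scaling, Tough 2 had 18 of 29 reads methylated (62.1%, 95% Wilson interval 44.0 to 77.3%) and Tender 9 had 20 of 32 (62.5%, 45.3 to 77.1%). The cytosine was a cluster of its own, so no neighbour gave a further reading, and as a cluster it had the region's lowest adjusted p, 0.0812 (logistic model). Tough and Tender means were 47.8% (n = 3) and 71.9% (n = 4) where conversion was lower, and 54.2% (n = 3) and 75.4% (n = 2) where it was higher. As the groups did not overlap, any split of the animals would show this order, so the split is not a separate test.

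Of the other 3 cytosines with small p-values that were higher in Tender animals, 43505432 (plus strand, 355.4 kb) had 6.03% ± 5.18 in Tough and 21.1% ± 14.9 in Tender animals (SD, n = 6 each), 17.6 points apart in the pooled reads. The groups overlapped, as 1 Tender animal was at 0. The adjusted p was 0.214 (logistic model) and the exact permutation p 0.0411. At 43339209 (189.2 kb), in the second of the richest unmethylated runs, all Tough animals had 0% and Tender animals a median of 4.48% (lowest 0, highest 14.3). The adjusted p was 0.127 (logistic model) and the exact permutation p 0.0606. Before scaling, the Tough animals had 10 to 40 reads there, which allows a level of up to 30 and 7.5%. The 4 neighbours of 43339209 within 50 bp on the same strand differed by -1.56 to 0.515 points and so did not share its difference. At 43502528 (352.5 kb) in a methylated run all Tender animals had 100% and Tough animals 94.7% ± 5.84 (SD, n = 6, lowest 85.2, median 96.3, highest 100). There the adjusted p was 0.170 (logistic model) and the exact permutation p 0.0606.

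Toward Tough animals the largest difference was at 43717261 (plus strand, 567.3 kb), inside the intermediate run of 21 cytosines. Tough animals had 45.4% ± 12.7 (SD, n = 6, lowest 26.7, median 46.0, highest 59.3) and Tender animals 20.7% ± 14.9 (SD, n = 6, lowest 8.33, median 16.2, highest 50). Tender 9 had 50%, and the other 5 Tender animals, at 8.33 to 20%, lay below every Tough animal. The pooled difference was -24.1 points with an adjusted p of 0.299 (logistic model) and an exact permutation p of 0.0195, and it was -30.7 points with an adjusted p of 0.00689 without Tender 9, the call given above. The 6 neighbours within 50 bp on the same strand differed by -13.7 to 10.6 points, in both directions. On the other strand of the same CpG, at 43717262, the levels were 36.9% ± 8.57 in Tough and 41.3% ± 11.8 in Tender animals (SD, n = 6 each), so the difference of the plus strand was not seen on the minus strand.

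The other 4 cytosines with the smallest p-values toward Tough animals were near 0 or near 100%. At 43399885 (249.9 kb), 43297518 (147.5 kb) and 43523671 (373.7 kb), all in unmethylated runs, every Tender animal had 0%. Tough animals had 11.2% ± 12.6, 3.44% ± 5.38 and 4.89% ± 6.57 there (SD, n = 6 each), and 3, 4 and 3 of the 6 were at 0 as well. Before scaling, the zero-count limits of the Tender animals were 13.6 to 27.3%, 12 to 23.1% and 14.3 to 25%. All of these limits were above the Tough means. Adjusted p-values at these 3 cytosines were 0.276, 0.310 and 0.388 (logistic model), and exact permutation p-values 0.182, 0.455 and 0.182. Without Tough 2 the first had an adjusted p of 0.0498 (logistic model) with a difference of -12.2 points. At 43314244 (164.2 kb) Tough animals had 96.8% ± 1.87 and Tender animals 90.3% ± 5.46 (SD, n = 6 each, -7.86 points, adjusted p = 0.294, logistic model, exact permutation p = 0.0216).

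By cluster, the 15 cytosines from 43242509 to 43242668 had small values with little spread. Tough animals had 0.582% ± 0.480 (SD, n = 6, lowest 0, median 0.753, highest 1.004) and Tender animals 1.59% ± 0.446 (SD, n = 6, lowest 1, median 1.595, highest 2.21). The adjusted p was 0.145 (logistic model) and the exact permutation p 0.00433. The difference in pooled reads was 0.934 points. At lower conversion Tough animals had 0.978% and Tender animals 1.73%, and at higher conversion 0.186 and 1.32%. Toward Tough animals, the 3 cytosines from 43711754 to 43711791 had 64.5% ± 10.3 (SD, n = 6, lowest 46.4, median 68.5, highest 73.3) and 50.7% ± 3.44 (SD, n = 6, lowest 47.0, median 50.8, highest 54.7). Tough 2, at 46.4%, was below all Tender animals and the other 5 were above all of them (-13.5 points, adjusted p = 0.179, logistic model, exact permutation p = 0.0216). Tough and Tender means there were 71.4% (n = 3) and 49.2% (n = 4) at lower conversion, and closer at higher conversion, 57.7% (n = 3) and 53.7% (n = 2). The next clusters in that direction, 43735465 to 43735515 and the single cytosine at 43190588, had adjusted p-values of 0.752 and 0.754 (logistic model). Their exact permutation p-values were 0.446 and 0.182. In the cluster from 43735465, Tough and Tender animals had 1.69 and 0.394% at lower conversion. At higher conversion they had 0.219 and 0.301%, so the order was not the same in both. The lowest adjusted p of any window, 0.0640 (logistic model), belonged to the window from 43555701 to 43555800, named after its values were seen. Its 3 covered cytosines were 3.55 points higher in Tender animals. The window cuts a cluster of 7 cytosines, 43555785 to 43555829, which differed by 1.45 points with an adjusted p of 0.862 (logistic model).

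None of the 5 cytosines with the largest spread between animals passed the test. At 43313717 (plus strand, 163.7 kb, SD 28.5 points over 12 animals) Tough animals had 69.8% ± 37.4 (SD, n = 6, lowest 5.56, median 82.6, highest 100) and Tender animals 94.4% ± 4.90 (SD, n = 6, lowest 89.5, median 93.7, highest 100). The low values were those of Tough 2 at 5.56% and Tough 1 at 48.1%, while neighbouring cytosines within 50 bp differed between groups by -0.806 to 4.25 points. The exact permutation p at 43313717 was 0.162. At 43428690 (278.7 kb, SD 25.8 points) Tough animals had 24.0% ± 22.9 and Tender animals 54.3% ± 19.6 (SD, n = 6 each), the largest pooled difference of the region at 24.5 points, with an adjusted p of 0.580 (logistic model) and an exact permutation p of 0.0411. The cytosine just before it, at 43428666, was higher in Tough animals, by 14.1 points, and so had the opposite order. The groups overlapped at the other 3, 43715253 (565.3 kb, 76.5% ± 24.6 and 75.4% ± 20.8, SD, n = 6 each), 43725831 (575.8 kb, 50.9% ± 29.6 and 56.2% ± 15.9) and 43734385 (584.4 kb, 37.7% ± 16.8 and 44.6% ± 25.2). Their exact permutation p-values were 0.892, 0.714 and 0.619. At 43715253 Tough and Tender animals had 72.6 and 77.5% at lower conversion, and 80.5 and 71.3% at higher conversion. At 43725831 they had 61.9 and 51.6%, and 40 and 65.6%, so the order changed at both. The only other cytosine whose groups did not overlap, named after its values were seen, was 43254839 (104.8 kb), with 1.13% ± 1.76 in Tough and 5.44% ± 1.51 in Tender animals (SD, n = 6 each, adjusted p = 0.612, logistic model). There the difference in pooled reads was 3.87 points, with 2.27 and 5.42% in Tough and Tender animals at lower conversion and 0 and 5.49% at higher conversion. Before scaling, each Tender animal had 1 methylated read at 43254839, as did Tough 1 and Tough 3, and the other Tough animals had 0. The groups were kept apart only by depth, as 1 of 26 reads in Tender 11 (3.85%) lay next to 1 of 27 in Tough 3 (3.70%).

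**Figure D5:**
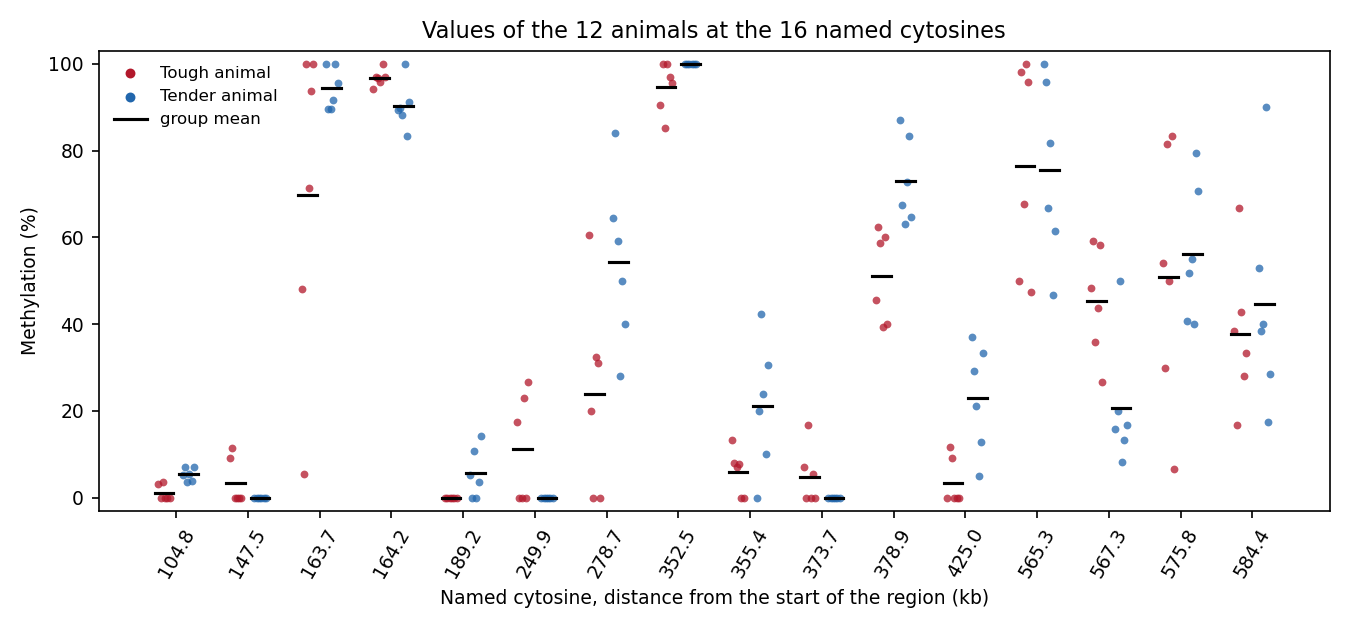
Methylation in percent (vertical axis) of the 6 Tough (red) and 6 Tender animals (blue) at the 16 cytosines named by rank or for lack of overlap, placed by distance from the start of the region in kb (horizontal axis), with black lines at the group means. Only at 378.9 kb (43528909) and 104.8 kb (43254839) do the 2 groups not overlap, and at 104.8 kb every animal had 0 or 1 methylated read before scaling.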

How the data were processed

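For the 12 muscle libraries (6 Tough, 6 Tender), the authors had used Trim Galore 0.4.1 for trimming, Bismark 0.23.0 for alignment on ARS-UCD1.2 and methylKit 1.8.1 for the calls, keeping cytosines with at least 10 reads and removing those above the 99.9th percentile of coverage. The deposited columns were taken as a score, since they hold reads scaled by a factor of 1 to 1.27 for each animal and then rounded, not raw counts. The reads before scaling were recovered for all values and used for intervals and in 1 alternative, which was chosen after seeing the data. The tests had been planned for counts, and the planned model was kept because methylKit fits it to scaled coverage. Reads before scaling, summed over all covered cytosines, came to 14521826 to 23470740 per animal, with a read counted at each cytosine it covers.

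Percent methylation was methylated over all reads. The logistic model on group, with the McCullagh-Nelder overdispersion factor (not below 1) and a chi-square test, was fitted on the whole table in Python 3.11.15 (numpy 2.4.6, pandas 2.3.3, scipy 1.17.1), with p-values adjusted by Benjamini-Hochberg. The same fit was made on 100 bp windows and on clusters. The model at single cytosines and the recovery of reads before scaling were run on simulated data, while the window and cluster fits were not. limma 3.58.1 in R 4.3.3 used log2 ratios with a pseudocount of 1. As alternatives, the F-test, a fit without overdispersion correction, one with conversion group as covariate, limma, at least 20 reads, a threshold of 10 points, 200 bp windows, 50 bp gaps, merged strands, pooled reads and leaving out each animal were run. Spike-in conversion rates came from the study's supplementary table, whose animal numbers were matched to those of the samples.

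The region and the rules for naming cytosines were chosen with earlier results of these data known. Named cytosines were DMCs, the 5 smallest p-values in each direction and the 5 largest SDs over animals, and named clusters the 3 smallest p-values in each direction. Genes were taken only as names and order from RefSeq for another assembly, so values for the CAPN1 promoter and gene body, the other calpain genes, muscle proteins cut by calpain and muscle, fat, leukocyte and vessel markers were not computed here.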

Additional observations from a re-analysis of the deposited data

Results flagged for a closer look

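In 3 of the 39 groups of 6 animals that were examined at the named cytosines and clusters, 1 animal stood apart from the others by Dixon's criterion at 95%. Chance alone flags about 1 in 20 such groups. At cytosine 43717261, Tender 9 had 50% and the other Tender animals 8.33 to 20%. In the cluster from 43574988 to 43575023, Tough 6 had 1.16% and the other Tough animals 10.6 to 14.9%. In the cluster from 43735465 to 43735515, Tough 3 had 3.72% and the other Tough animals 0 to 1.36%.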

How the results depend on the processing

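DMC, DMR and cluster calls in the CAPN1 region numbered 0 in every alternative run on all 12 animals. For cytosines, several of these counts could not be other than 0. The F-test, limma, the conversion covariate, the fit without overdispersion correction and the depth filter all kept the pooled differences. Their largest size in the region was 24.5 points, under the threshold of 25 points. Leaving out 1 animal gave 0 to 1 DMCs (1 without Tender 9, at 43717261, and 1 without Tender 10, at 43574994), 0 DMRs and 0 clusters. The count of cytosines at unadjusted p under 0.05, 64, became 124 without overdispersion correction (19.1% of all cytosines), 42 with limma (4.91% of all) and 10 of the 192 cytosines left with at least 20 reads in every animal (8.69% of all at that depth). It was 53 to 64 with 1 animal left out and stayed within 1.5 times under the F-test (46), the conversion covariate (73), merged strands (53) and reads before scaling (56). The mean difference of 0.797 points lay between 0.529 and 1.19 under other filters and pooling, and between 0.581 and 1.03 with 1 animal left out. It was 0.174 within the lower-conversion animals and 1.23 within the higher-conversion animals, both outside these ranges.

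Of 272 values of the 16 named cytosines under alternatives, 250 kept direction and side of the threshold, 10 changed sign and 12 passed the p threshold, 9 of them without overdispersion correction. The F-test, the fit without overdispersion correction and the conversion covariate left the pooled difference as it was, so direction could not change there. A difference adjusted for conversion group was not computed. The sign changed with 1 animal left out at 43725831 (-4.12 to 10 points), 43715253 (-6.69 to 7.67 points) and 43734385 (-1.37 to 17.7 points). No paired analysis was possible because the groups share no replicate numbers. The alternatives on CAPN1 promoter width and gene body were not run, as no annotation of this build was used. The median of 20 to 35 reads per cytosine and animal limits the precision of single values.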
